A study of Rattus norvegicus with 69 samples.

Results

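The comparison set the livers of rats in the group labelled BWM against those of rats given liraglutide together with PYY3-36, the group labelled PYY_Lira. Members were chosen by label: all 8 BWM libraries, which belong to batch A, and the 6 PYY_Lira libraries of batch A, 14 of the 69 liver libraries of the series. All libraries are labelled as liver of Wistar rats and hold poly(A) RNA, and the animals the study describes were male. The labels do not expand BWM, and neither the labels nor the study's text say what these animals received, so diet, surgery and feeding of the BWM group are not known here. PYY_Lira rats had become obese on a high-fat diet, and then received liraglutide, a long-acting agonist of the GLP-1 receptor, by injection and PYY3-36, a gut peptide that lowers food intake, from an implanted minipump. These rats could choose between high-fat and low-fat chow, and were fasted overnight before the liver was taken. In the study, 6 combination-treated and 3 saline-treated animals had a prolonged feeding period. Batch A holds 6 PYY_Lira and 3 Saline libraries, but the sources used here do not tie these animals to libraries. A further 27 libraries of batch A (11 Bypass, 7 Sham, 6 Lean and 3 Saline) entered the same model to estimate the spread between libraries, and Sham and Saline also served as context. The difference between BWM and PYY_Lira therefore combines whatever defines the BWM group with the drug treatment. Any surgery or implantation and any difference in the length of feeding enter it too, and these cannot be told apart.

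The liver makes cholesterol from acetyl-CoA by way of mevalonate, squalene and lanosterol. Its synthesis genes are switched on together by the transcription factor SREBP2 when sterols in the endoplasmic reticulum are low, and the related SREBP1c acts with insulin on the genes of fatty acid synthesis. Fasting acts in the opposite direction on another branch: fatty acids released from adipose tissue activate the nuclear receptor PPARα, which switches on genes of fatty acid oxidation and of the Cyp4a omega-hydroxylases.

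Total counts per library lay between 18898785 and 26248686 in BWM and between 19117020 and 27559144 in PYY_Lira, and no pair of libraries held identical values. Values below are normalised read counts (CPM), scaled to the TMM-adjusted size of each library. A log2 fold change is BWM minus PYY_Lira, so that a positive one means a higher level in BWM. Hepatocyte markers were present in both groups, with none of the 12 at 0, and their summed level was 148118 to 195121 CPM in BWM and 131863 to 183004 CPM in PYY_Lira. The 10 erythroid markers summed to 85.1 to 609 CPM (median 184) in BWM and 129 to 655 CPM (median 531) in PYY_Lira, and all 9 that were tested were lower in BWM on average, without any passing the test. The 16 markers of Kupffer cells and macrophages summed to 318 to 862 CPM in BWM and 297 to 529 CPM in PYY_Lira, and the 28 stellate cell and matrix genes to 559 to 806 CPM in BWM and 308 to 956 CPM in PYY_Lira. The part of these cells in the results below was not tested. In whole liver, fewer cells of a type and less RNA per cell cannot be told apart.

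BWM livers had higher levels of the cholesterol synthesis genes Fdps, Cyp51, Pmvk and Ebp, of the lysolipid transporter gene Mfsd2a and of the clock-controlled gene Noct, and lower levels of the PPARα targets Cyp4a1, Cyp4a2 and Vnn1, of the cholesterol ester hydrolase gene Nceh1 and of ferritin light chain. Of 16552 genes tested, 43 passed an adjusted p of 0.05 in edgeR's quasi-likelihood test with Benjamini-Hochberg adjustment (0.26% of genes). Of these, 17 were higher in BWM (0.103%) and 26 lower (0.157%). When the log2 fold change also had to reach 1 in size, 9 were higher (0.0544%) and 8 lower (0.0483%). The groups did not overlap for 7 of the 17 higher genes and 18 of the 26 lower genes. Over all genes tested, BWM lay above PYY_Lira without overlap for 45 genes (0.272%) and below it for 48 (0.29%). The median log2 fold change of all genes was -0.01.

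**Figure D1:**
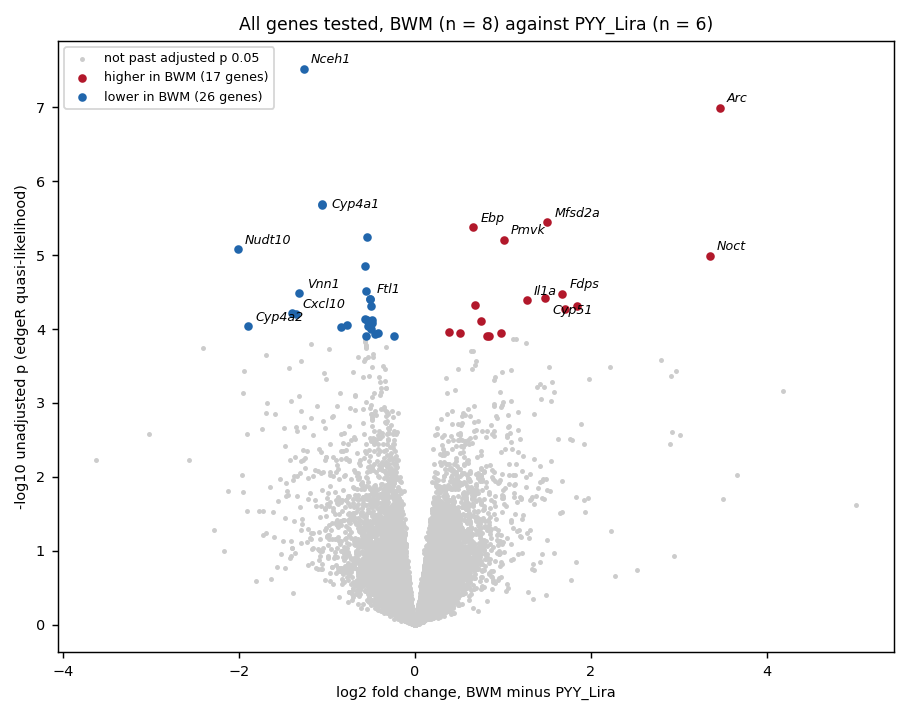
Each point is one of the 16552 genes tested, with the log2 fold change of BWM (n = 8) minus PYY_Lira (n = 6) on the x axis and -log10 of the unadjusted p on the y axis. The 17 genes higher in BWM are red and the 26 lower are blue, with Nceh1 at the top on the left and Arc and Noct far to the right.

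The number of calls depended on single libraries. Without BWM replicate 1, 2, 4, 5, 6 or 8 the number past the threshold was 11, 22, 12, 12, 20 or 24, in that order of replicates, and without BWM replicate 3 or 7 it was 43 or 46. Without PYY_Lira replicate 2 or 3 only 5 genes passed, without replicate 1 there were 12 and without replicate 5 there were 17, while without replicate 4 or 6 there were 36 or 30. Of the genes named here, Nceh1 and Arc passed with any one of the 14 libraries left out, and 10 of the 43 genes passed in at least 10 of these 14 fits. In a fit of all 69 libraries with a term for each group within each batch 4 genes passed, Nceh1, Noct and Mfsd2a among them, and 2 passed when group and batch were separate terms, so that the 5 PYY_Lira libraries of batch B entered. Nceh1 was among these 2, whereas Noct, Fdps and Ftl1 then had log2 fold changes of 1.72, 1.11 and -0.33 (edgeR adjusted p = 0.606, 0.508 and 0.766). None of the 43 genes changed direction in these fits or with 1 library left out.

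**Figure D2:**
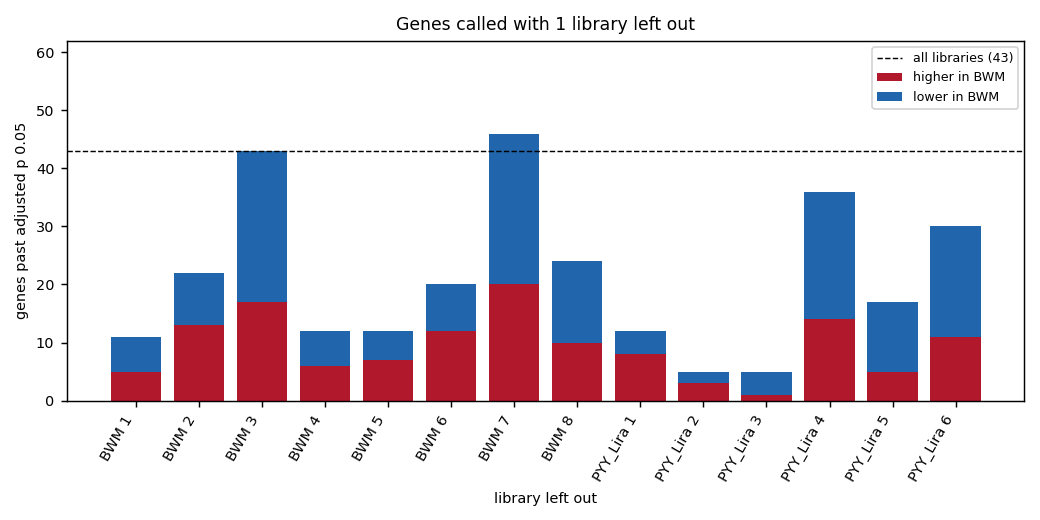
Bars give the number of genes past an adjusted p of 0.05 after leaving out the library named below each bar, split into genes higher (red) and lower (blue) in BWM, with BWM libraries on the left and PYY_Lira libraries on the right. The dashed line marks the 43 genes called with all libraries, and the lowest bars, at 5 genes, are PYY_Lira replicates 2 and 3.

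Cholesterol synthesis genes were on average higher in BWM at every step tested. All 20 tested genes of the pathway had a positive log2 fold change (19 with group and batch as separate terms), 4 of them rose (Fdps, Cyp51, Pmvk and Ebp) and none fell, against 0.103% of all genes that rose. The list had a median of 0.86, and 18 of the 20 were higher with an unadjusted p under 0.05, against 4.46% of all genes that were higher and 4.95% that were lower at that level, 9.41% in all. In both fits of all 69 libraries 0 members passed. The median was 0.86 with a term for each group within each batch, and 0.63 with group and batch as separate terms. Without PYY_Lira replicate 3 also 0 members passed, and without replicate 2 only 1. By library, the mean of the centred log2 CPM of the 20 genes was highest in BWM replicates 1, 4 and 8 (0.87, 0.93 and 0.86) and lowest in PYY_Lira replicates 3 and 5 (-0.75 and -0.82). The groups overlapped on this scale, since BWM replicates 2 and 7 (-0.01 and -0.20) lay below PYY_Lira replicate 4 (0.08).

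**Figure D3:**
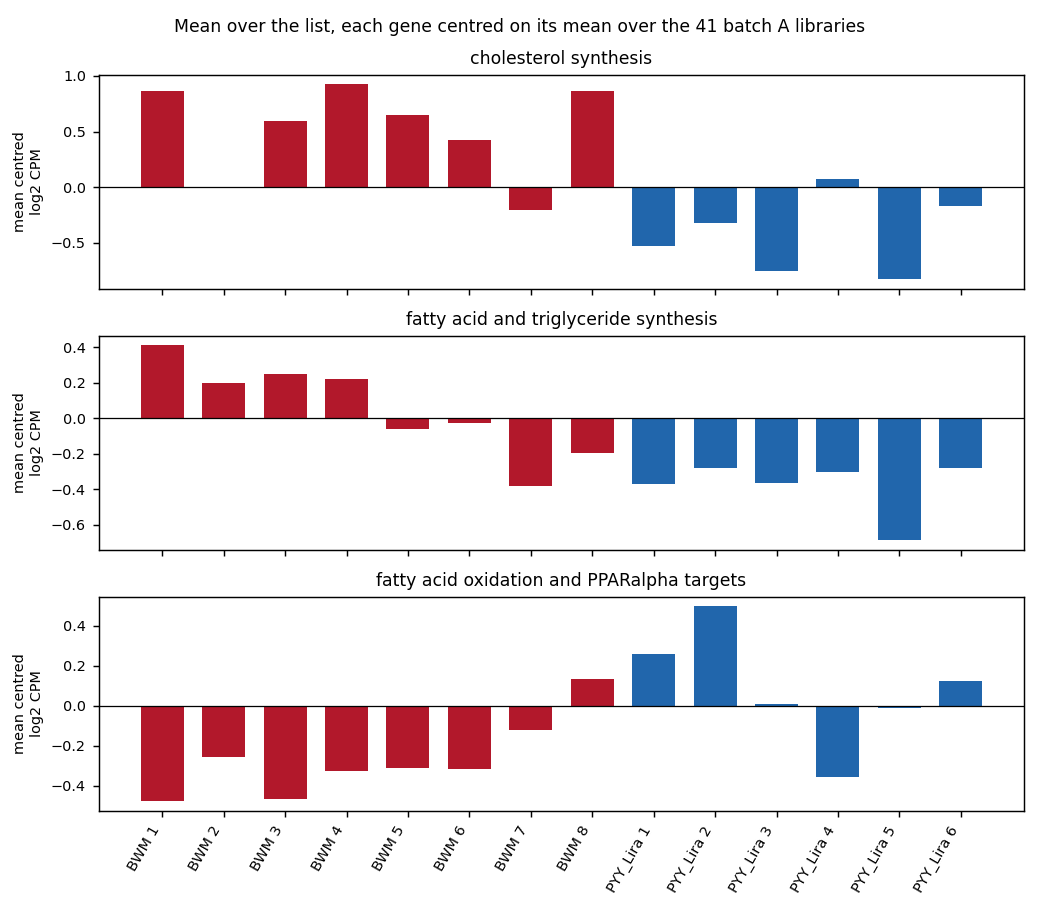
Bars give, for each of the 8 BWM libraries (red, left) and 6 PYY_Lira libraries (blue, right), the mean log2 CPM over a gene list after each gene was centred on its mean in the 41 libraries of batch A. For cholesterol synthesis the BWM bars run from -0.20 to 0.93 and the PYY_Lira bars from -0.82 to 0.08.

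Among the early steps, Pmvk, phosphomevalonate kinase, had 16.4, 23.7 and 40.8 CPM (lowest, median and highest) in BWM, against 11.1, 13.5 and 16.8 CPM in PYY_Lira. Only BWM replicate 7, at 16.4 CPM, lay within the PYY_Lira range. Pmvk had a log2 fold change of 1.01 (SE 0.19, edgeR adjusted p = 0.0127). Fdps, farnesyl diphosphate synthase, which makes the precursor of squalene and of prenyl groups, lies at chr2:188403595-188413219 on the minus strand in Rnor_6.0. It had 113, 220 and 363 CPM in BWM, against 54.7, 59.7 and 113 CPM in PYY_Lira. The highest PYY_Lira library, replicate 4, met the lowest BWM library, replicate 7, and the other libraries were separate. The log2 fold change of Fdps was 1.67 (SE 0.36, edgeR adjusted p = 0.0374). A processed copy, LOC102552980, which RefSeq names as a Fdps pseudogene, had a log2 fold change of 1.71 (SE 0.38, edgeR adjusted p = 0.0397). Its CPM was 0.0452 to 0.0704 of that of Fdps in the 14 libraries, so that reads divided between the copies cannot be told from transcription of the copy.

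Of the steps after squalene, Cyp51, the lanosterol demethylase, had 76.1, 188 and 238 CPM in BWM, against 40.0, 63.1 and 84.0 CPM in PYY_Lira. BWM replicate 7 alone fell within the PYY_Lira range. Cyp51 had a log2 fold change of 1.48 (SE 0.32, edgeR adjusted p = 0.0374). Ebp, the sterol isomerase that shifts a double bond in the sterol ring, had 110, 139 and 179 CPM in BWM, against 80.9, 81.8 and 119 CPM in PYY_Lira, with PYY_Lira replicate 4 reaching into the BWM range. Its log2 fold change was 0.66 (SE 0.12, edgeR adjusted p = 0.0115). Among members that did not pass, the log2 fold change was 1.89 for Sqle, squalene epoxidase (edgeR adjusted p = 0.177), and 1.55 for Idi1, which isomerises the isoprene unit (edgeR adjusted p = 0.0915). The smallest was that of Sc5d, a late desaturase, at 0.18. Leaving out 1 library ended some of these calls. Fdps and Cyp51 had edgeR adjusted p-values of 0.0530 to 0.144 without BWM replicate 1, 4 or 5 or PYY_Lira replicate 1, 2, 3 or 5, and Cyp51 also without BWM replicate 8 (0.0530). Pmvk had 0.0683 without PYY_Lira replicate 3, and Ebp 0.0595 and 0.0648 without PYY_Lira replicates 2 and 3.

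The promoters of Fdps and Ebp are shown because both genes rose and both windows hold CCAAT boxes, the letters that the factor NF-Y, a known partner of SREBP2 at sterol genes, binds. That of Cyp51, which also rose, has none. Each is the 250 bases before the gene start in RefSeq's GRCr8 annotation, given 5′ to 3′ on the gene's strand, with CCAAT, or ATTGG where the box lies on the other strand, in capitals.
Fdps, chr2:176804817-176805066 (minus strand): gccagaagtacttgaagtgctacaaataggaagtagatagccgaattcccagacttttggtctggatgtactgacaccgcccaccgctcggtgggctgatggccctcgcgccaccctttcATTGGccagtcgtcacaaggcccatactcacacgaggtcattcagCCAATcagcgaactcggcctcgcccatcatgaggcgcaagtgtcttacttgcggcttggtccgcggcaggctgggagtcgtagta
Ebp, chrX:16971212-16971461 (plus strand): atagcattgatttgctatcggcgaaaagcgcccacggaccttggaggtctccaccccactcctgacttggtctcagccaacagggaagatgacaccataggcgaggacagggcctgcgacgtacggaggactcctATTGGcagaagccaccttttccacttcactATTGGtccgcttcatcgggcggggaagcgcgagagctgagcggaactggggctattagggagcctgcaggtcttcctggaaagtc
Cyp51, chr4:30991443-30991692 (plus strand): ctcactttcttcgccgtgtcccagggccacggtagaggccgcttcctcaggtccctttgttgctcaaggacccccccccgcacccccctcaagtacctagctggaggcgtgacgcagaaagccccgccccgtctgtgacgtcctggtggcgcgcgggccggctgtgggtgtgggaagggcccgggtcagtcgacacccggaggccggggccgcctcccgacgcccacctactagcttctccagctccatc

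In these windows the boxes of Fdps begin 130 and 85 bases before the start, and those of Ebp 115 and 85 bases before it. CCAAT on either strand was found in 12 of the 15 cholesterol synthesis genes with a window in the table, in 8 of 12 genes of fatty acid and triglyceride synthesis and in 7 of 25 genes of fatty acid oxidation. Of all 33469 windows, 34% held it. The letters TCACNCCAC, a form of the sterol regulatory element, were found on either strand in none of the 15 windows and in 0.974% of all windows, so these letters are simply not in these stretches. A match of letters is a description, and no binding was measured.

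The genes that control the pathway had positive log2 fold changes in 7 of 8 tested, with a median of 0.42 and none past the test. Insig1, which holds SREBP in the endoplasmic reticulum and is itself an SREBP target, had 83.7, 124 and 212 CPM in BWM, against 22.2, 48.4 and 68.3 CPM in PYY_Lira. The ranges were separate, but the log2 fold change of 1.58 (SE 0.43) did not pass (edgeR adjusted p = 0.111). Srebf2, the gene of SREBP2, had a log2 fold change of 0.39 (edgeR adjusted p = 0.288). The 9 LXR targets and sterol exporters had no call, 4 positive and 5 negative log2 fold changes and a median of -0.02.

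Nceh1 had the smallest p of all genes, and the groups did not overlap. It encodes neutral cholesterol ester hydrolase, which frees cholesterol from its stored esters, and lies at chr2:112868834-112932622 on the plus strand in Rnor_6.0. It had 6.96, 8.27 and 9.72 CPM in BWM, against 13.03, 20.9 and 23.9 CPM in PYY_Lira. The 8 BWM libraries lay close together, and the lowest PYY_Lira library, replicate 1, was still above all of them. Its log2 fold change was -1.27 (SE 0.18, edgeR adjusted p = 0.000492), and it passed in 25 of 25 alternative settings. Soat1, which esterifies cholesterol, had a log2 fold change of 0.88 without passing (edgeR adjusted p = 0.316).

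**Figure D4:**
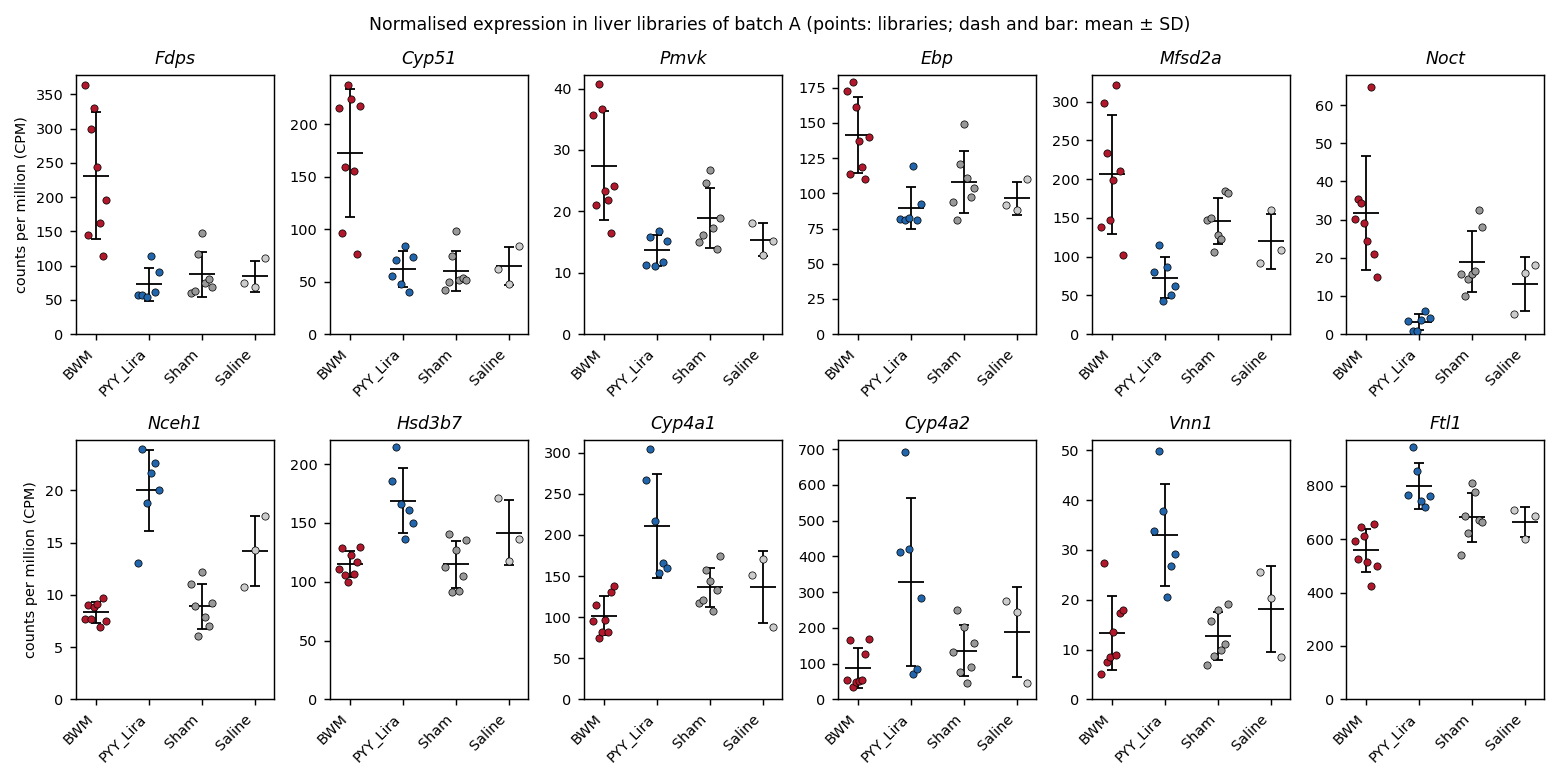
Points are CPM in single libraries of batch A for BWM (n = 8), PYY_Lira (n = 6), Sham (n = 7) and Saline (n = 3), and the dash and bar are mean ± SD. In the upper row, genes higher in BWM, and in the lower row, genes lower in BWM, where the 8 BWM points of Nceh1 lie between 6.96 and 9.72 CPM and the 6 PYY_Lira points between 13.03 and 23.9 CPM.

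Fatty acid synthesis genes had mostly positive log2 fold changes, but none passed the test. Of 17 tested, 11 were positive and 6 negative, with a median of 0.45, and 7 had a positive change with an unadjusted p under 0.05 and 1 a negative one, against 4.46% and 4.95% of all genes. Fasn, fatty acid synthase, had 80.3, 176 and 325 CPM in BWM, against 26.3, 36.4 and 54.1 CPM in PYY_Lira. No BWM library reached down to the PYY_Lira range, and the log2 fold change was 2.22 (SE 0.56, edgeR adjusted p = 0.0746). Acly, which makes cytosolic acetyl-CoA, had a log2 fold change of 1.35 (edgeR adjusted p = 0.153), and Thrsp, a lipogenic regulator, 0.97 (edgeR adjusted p = 0.243). Me1, malic enzyme, had -0.17, and Agpat2, an acyltransferase of triglyceride synthesis, had -0.46 (edgeR adjusted p = 0.363). Fads1, the delta-5 desaturase of polyunsaturated fatty acids, had 264, 408 and 669 CPM in BWM, against 146, 169 and 217 CPM in PYY_Lira. These ranges did not overlap either, and the log2 fold change was 1.26 (SE 0.30, edgeR adjusted p = 0.0534). DESeq2, run as an alternative, called 113 genes in the same libraries, and all 43 genes of the edgeR test were among them.

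Mfsd2a, which encodes a transporter of lysophosphatidylcholines that carry polyunsaturated fatty acids, rose. It had 103, 204 and 321 CPM in BWM, against 43.2, 70.9 and 115 CPM in PYY_Lira. Only BWM replicate 8 (103 CPM) and PYY_Lira replicate 2 (115 CPM) crossed. The log2 fold change was 1.50 (SE 0.28, edgeR adjusted p = 0.0115), and without PYY_Lira replicate 3 the adjusted p was 0.0648. Pnpla3, a lipase of the lipid droplet, varied widely within BWM, with 0.558, 2.69 and 33.5 CPM, against 0.0951, 0.327 and 0.833 CPM in PYY_Lira. Its log2 fold change of 4.18 (SE 1.13) did not pass (edgeR adjusted p = 0.109).

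PPARα targets were among the genes that fell. Of 32 tested genes of fatty acid oxidation and other PPARα targets, 27 had a negative log2 fold change, 3 fell (Cyp4a1, Cyp4a2 and Vnn1) and none rose, against 0.157% of all genes that fell. The median was -0.20, and 12 had a negative change with an unadjusted p under 0.05, against 4.95% of all genes. The 3 that fell are an omega-hydroxylase pair and a pantetheinase, not enzymes of mitochondrial β-oxidation. By library, the list was highest in PYY_Lira replicate 2 (0.50) and lowest in BWM replicate 1 (-0.48), and PYY_Lira replicate 4 (-0.36) lay among the BWM libraries. Without PYY_Lira replicate 2 the median of the list was -0.10 and 0 members passed.

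Cyp4a1, whose enzyme hydroxylates the far end of medium and long fatty acids, had 74.4, 96.4 and 138 CPM in BWM, against 153, 192 and 304 CPM in PYY_Lira. Every BWM library lay below every PYY_Lira library, and the log2 fold change was -1.05 (SE 0.19, edgeR adjusted p = 0.00854). Among the fits with 1 library left out, it missed the threshold only without PYY_Lira replicate 2 (0.0595). Cyp4a1 passed in 22 of all 25 alternative settings, with log2 fold changes between -1.13 and -0.80 and adjusted p-values of up to 0.913. Cyp4a2 had 33.6, 54.6 and 169 CPM in BWM, against 71.0, 347 and 693 CPM in PYY_Lira. PYY_Lira replicates 4 and 5, at 71.0 and 86.0 CPM, lay within the BWM range, and the other 4 PYY_Lira libraries lay above it. The log2 fold change was -1.89 (SE 0.43, edgeR adjusted p = 0.0468). Vnn1, a pantetheinase and PPARα target, had 5.16, 11.2 and 27.4 CPM in BWM, against 20.4, 31.5 and 49.8 CPM in PYY_Lira, with BWM replicate 2 within the PYY_Lira range. Its log2 fold change was -1.31 (SE 0.28, edgeR adjusted p = 0.0374). Cyp4a2 had edgeR adjusted p-values of 0.0648 to 0.256 without BWM replicate 1, 3, 4, 5 or 6 or PYY_Lira replicate 1, 2, 3 or 6. Vnn1 had 0.0592 to 0.165 without BWM replicate 1, 4, 5 or 6 or PYY_Lira replicate 1, 2 or 3.

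No enzyme of β-oxidation in the list passed. Ech1 and Eci1, isomerases for unsaturated fatty acids, had log2 fold changes of -0.68 (edgeR adjusted p = 0.115) and -0.64 (edgeR adjusted p = 0.288). Hadha, a subunit of the trifunctional protein, had -0.36 (edgeR adjusted p = 0.147), and Pdk4, a kinase that limits glucose oxidation, -0.82 (edgeR adjusted p = 0.497). Cpt1a, which admits fatty acids to mitochondria, had 0.15. Its difference was smaller than its own standard error (0.19), so the direction was not resolved.

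**Figure D5:**
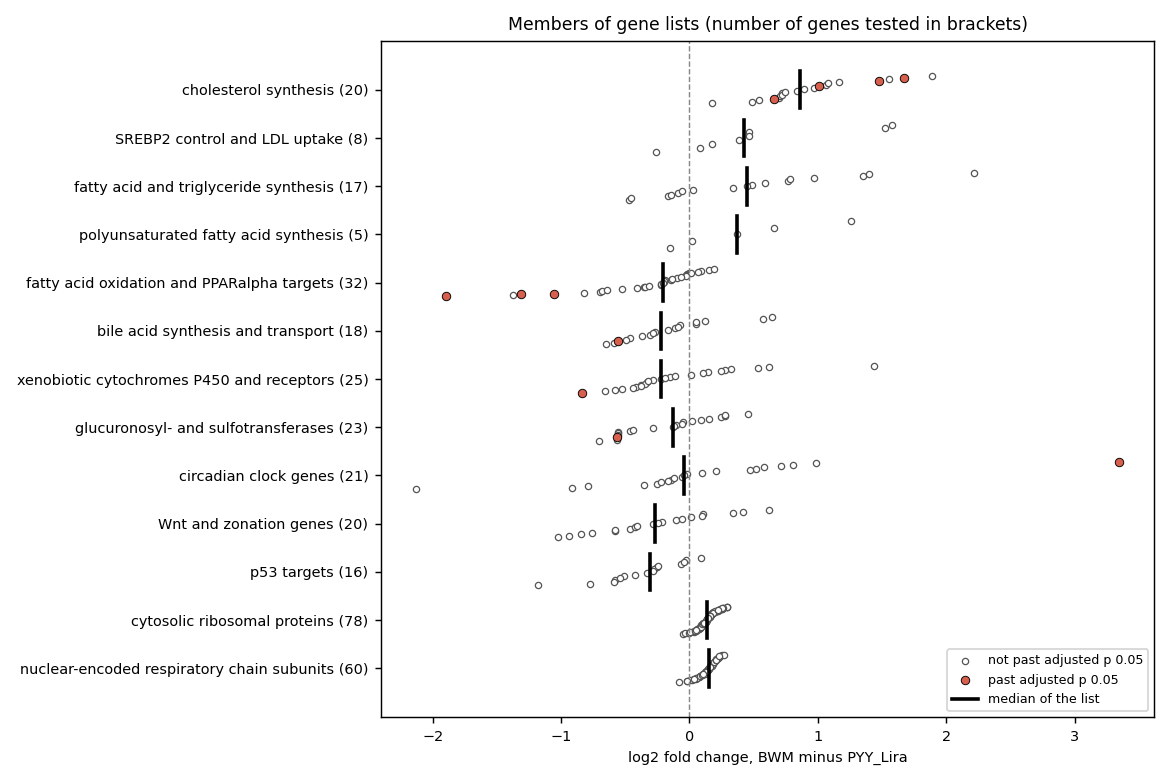
Each point is a gene of the list named on the left, placed at its log2 fold change of BWM minus PYY_Lira; filled points passed an adjusted p of 0.05 and black bars are list medians. All 20 points of cholesterol synthesis lie right of 0 with a median of 0.86, and the 3 filled points of the PPARα list lie between -1.89 and -1.05.

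Of bile acid genes, Hsd3b7, a dehydrogenase of an early step from cholesterol to bile acids, fell. It had 99.4, 114 and 129 CPM in BWM, against 136, 163 and 215 CPM in PYY_Lira. Again the ranges were separate, and the log2 fold change was -0.56 (SE 0.12, edgeR adjusted p = 0.0374). It was the only one of the 18 genes of the list to fall (0.157% of all genes), and 13 of the 18 log2 fold changes were negative, with a median of -0.22. Slco1b2, an uptake transporter of the sinusoidal membrane, had -0.65 (edgeR adjusted p = 0.0630), and Cyp8b1, which sets the proportion of cholic acid, -0.59 (edgeR adjusted p = 0.412). Hsd3b7 missed the threshold without BWM replicate 1, 4, 5 or 6 or PYY_Lira replicate 1, 2, 3 or 5 (0.0586 to 0.165).

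Of the genes of drug metabolism, Cyp2c6v1 and Ugt1a6 fell. Among 25 xenobiotic cytochromes P450 and their receptors, 1 fell, against 0.157% of all genes. In this list 16 lay below 0 in log2 fold change, against 8498 of all 16552 genes, and the median was -0.22. Cyp2c6v1 had 809, 1366 and 1648 CPM in BWM, against 1413, 2311 and 3011 CPM in PYY_Lira. PYY_Lira replicate 4 was the only one within the BWM range, and the log2 fold change was -0.84 (SE 0.19, edgeR adjusted p = 0.0468). LOC100911718, a neighbouring locus, had -0.78 (edgeR adjusted p = 0.0468), and its CPM was 0.291 to 0.400 of that of Cyp2c6v1 in the 14 libraries, so shared reads cannot be told apart from 2 transcripts. Cyp2e1, an ethanol-oxidising P450 of the perivenous liver, had -0.58 (edgeR adjusted p = 0.196). Of 23 glucuronosyl- and sulfotransferases, 1 fell (0.157% of all genes): Ugt1a6, with -0.56 (SE 0.13, edgeR adjusted p = 0.0479). Ugt1a3, whose CPM was 0.923 to 0.994 of that of Ugt1a6, had -0.57 (edgeR adjusted p = 0.0528). The Ugt1a genes share exons, so these values are not independent. Cyp2c6v1 and Ugt1a6 each stayed past the threshold in only 2 of the 14 fits with 1 library left out, with adjusted p-values of up to 0.165 and 0.256, both without PYY_Lira replicate 2.

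Ferritin light chain, the subunit of the iron store that promotes mineralisation, was lower in BWM. Ftl1 had 426, 559 and 656 CPM in BWM, against 721, 764 and 947 CPM in PYY_Lira. The groups did not overlap, and the log2 fold change was -0.51 (SE 0.11, edgeR adjusted p = 0.0374). The 26 genes lower in BWM held 8 loci that RefSeq names as Ftl1 or its copies or lists under that synonym, and 3 further loci with the same behaviour (Fam65b, LOC100362384 and LOC102549852). All 11 had log2 fold changes between -0.57 and -0.49. The log2 CPM of the 10 loci other than Ftl1 followed that of Ftl1 over the 14 libraries with r between 0.947 and 0.996, given as a description, since reads that match several copies were divided between them. These 11 calls can therefore not be read as separate observations. Of the other 16 genes of iron handling, none passed. Hamp, the hepcidin gene, had a log2 fold change of 0.20 (SE 0.52), and Id1, a target of the bone morphogenetic proteins that drive hepcidin, 1.09 (edgeR adjusted p = 0.0768). Ftl1 missed the threshold without BWM replicate 1, 2, 4, 5, 6 or 8 or PYY_Lira replicate 1, 2 or 3 (0.0587 to 0.165).

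Noct was the clock gene that rose, 1 of 21 tested, against 0.103% of all genes. It encodes nocturnin, a phosphatase with a daily rhythm in liver, and lies at chr2:140286661-140306869 on the plus strand in Rnor_6.0. It had 15.1, 29.6 and 64.8 CPM in BWM, against 0.709, 3.53 and 5.97 CPM in PYY_Lira. The groups did not overlap, with BWM replicate 6 the highest and PYY_Lira replicates 2 and 3 below 1 CPM. Other groups of batch A varied widely, with 1.72 to 76.6 CPM within Lean and 2.46 to 28.7 CPM within Bypass. The log2 fold change was 3.35 (SE 0.66, edgeR adjusted p = 0.0167), with adjusted p-values of 0.0833 and 0.0790 without PYY_Lira replicates 2 and 3. Other clock genes had log2 fold changes of both signs, and none passed. Per1, a repressor of the core loop, had a log2 fold change of 0.99 (edgeR adjusted p = 0.412), Nr1d1, the gene of REV-ERBα, -0.91 (edgeR adjusted p = 0.478), and Npas2, an activator of the loop, -2.13 (edgeR adjusted p = 0.384). Dbp, an output gene, had -0.22 (edgeR adjusted p = 0.795). The hour at which each liver was taken is not in the labels, and its part was not tested.

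Few immune genes changed. Il1a, the cytokine interleukin-1α, had 8.12, 15.1 and 24.8 CPM in BWM, against 3.99, 6.17 and 10.3 CPM in PYY_Lira, with BWM replicate 3 within the PYY_Lira range, and rose by a log2 fold change of 1.27 (SE 0.27, edgeR adjusted p = 0.0374). Cxcl10, a chemokine induced by interferon, had 0.535, 1.59 and 2.33 CPM in BWM, against 1.37, 4.55 and 5.29 CPM in PYY_Lira. PYY_Lira replicate 4 alone lay within the BWM range, and the log2 fold change was -1.36 (SE 0.30, edgeR adjusted p = 0.0428). Of 34 interferon-stimulated genes, 1 fell and none rose, with a median of -0.11, and of 28 chemokines and cytokines 1 rose and 1 fell, against 0.103% of all genes that rose and 0.157% that fell. Cxcl10 is the member that fell in both lists. Il1a had edgeR adjusted p-values of 0.0507 to 0.165 without BWM replicate 1, 6 or 8 or PYY_Lira replicate 1, 2, 3, 5 or 6. Cxcl10 had 0.0530 to 0.0889 without any one library other than BWM replicate 3, BWM replicate 8 and PYY_Lira replicate 4.

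The remaining calls fall outside the rule for named genes and were named after their values were seen. Arc, best known as an activity-regulated gene of neurons, was low in all livers, with 0.268, 0.836 and 1.80 CPM in BWM, against 0, 0.0466 and 0.196 CPM in PYY_Lira. The groups did not overlap, and the log2 fold change was 3.46 (SE 0.53, edgeR adjusted p = 0.000836). The PYY_Lira libraries held only 0 to 4 counts of Arc. It passed in 23 of 25 alternative settings, with log2 fold changes between 1.39 and 3.95. Other immediate early genes did not pass: Fos had a log2 fold change of 1.98 (edgeR adjusted p = 0.0871), while Jun had -1.41 (edgeR adjusted p = 0.132). Hbegf, a ligand of the EGF receptor, had a log2 fold change of 1.84 (edgeR adjusted p = 0.0388), and Pim1, a serine/threonine kinase, had -1.40 (edgeR adjusted p = 0.0428). Both were at or below 2.76 CPM in every library. Nudt10 had -2.01 (edgeR adjusted p = 0.0153), with at most 1.24 CPM in any library. With 1 library left out, Hbegf, Pim1 and Nudt10 stayed past the threshold in 4, 3 and 12 of 14 fits, with adjusted p-values of up to 0.0876, 0.165 and 0.0833, the highest without PYY_Lira replicate 3 for Hbegf and without PYY_Lira replicate 2 for the others. Genes with smaller changes that rose included Mapkapk2, a stress-activated kinase (0.84), Myl9, a myosin light chain of smooth muscle (0.74), Rpia, of the pentose phosphate pathway (0.51), and Sil1, a co-chaperone of the endoplasmic reticulum (0.39). Parp10, an ADP-ribosyltransferase (-0.42), and Eif2a, a translation initiation factor (-0.24), fell. Of these 6 genes, Myl9 stayed past the threshold in 5 of 14 fits with 1 library left out, Sil1 in 3, Mapkapk2 and Rpia in 2, Eif2a in 1 and Parp10 in 0, with the highest adjusted p of each, 0.165 to 0.233, without PYY_Lira replicate 2.

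BWM was also set against Sham and PYY_Lira against Saline in the same model. These comparisons share the BWM and the PYY_Lira libraries with the one above, so their values are given side by side only. BWM against Sham gave 7 genes past an adjusted p of 0.05 (0.0423%), and without any one BWM library 0 to 9, with 0 when BWM replicate 8 was left out. PYY_Lira against Saline gave 0 genes in edgeR (0%), with 1027 at an unadjusted p under 0.05 (6.2%), 0 in DESeq2, 3 in DESeq2 with shrunken fold changes and 1 in limma-voom. Saline had 3 libraries. Fdps had a log2 fold change of 1.41 in BWM against Sham (edgeR adjusted p = 0.112) and -0.22 in PYY_Lira against Saline (edgeR adjusted p = 0.959). Cyp51 had 1.53 in BWM against Sham, past the test (edgeR adjusted p = 0.0429), and -0.06 in PYY_Lira against Saline (edgeR adjusted p = 0.992). Srebf2 had 0.73 in BWM against Sham, also past the test (edgeR adjusted p = 0.0190), and 0.24 in PYY_Lira against Saline (edgeR adjusted p = 0.867). For the 20 cholesterol synthesis genes the median was 0.93 in BWM against Sham and 0.02 in PYY_Lira against Saline. Nceh1 had -0.09 in BWM against Sham (edgeR adjusted p = 0.856) and 0.49 in PYY_Lira against Saline (edgeR adjusted p = 0.801). The Nceh1 level itself was 6.01 to 12.1 CPM in Sham and 10.8 to 17.5 CPM in Saline. The difference between these controls was not tested. Cyp4a1 had -0.42 in BWM against Sham (edgeR adjusted p = 0.363) and 0.63 in PYY_Lira against Saline (edgeR adjusted p = 0.728). Noct had 0.74 in BWM against Sham (edgeR adjusted p = 0.597) and -2.08 in PYY_Lira against Saline (edgeR adjusted p = 0.725). For the PPARα list the medians were -0.22 in BWM against Sham and 0.14 in PYY_Lira against Saline.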

How the data were processed

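RNA of rat liver was sequenced in 69 stranded poly(A) libraries. Per the labels and the submitters' processing notes, the authors used bcl2fastq 2.20.0.422, cutadapt 2.5, STAR 2.7.2b on Rnor_6.0 and featureCounts 1.6.4, and deposited 1 table of expected counts (fractional, not normalized) for 38513 genes. Reads that matched several genes were divided, and 15.9% of values were not whole.

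Counts were rounded. The 41 libraries of batch A were fitted in 1 model in R 4.3.3 with edgeR 4.0.16 (filterByExpr, TMM, robust quasi-likelihood test, a term per group), with the contrast BWM minus PYY_Lira and Benjamini-Hochberg adjustment over the 16552 genes tested. DESeq2 1.42.0 and limma 3.58.1 were alternatives, as were other scaling, filter, rounding and sample choices, a replicate block and leaving out each library. No set test was run. Members, gene lists and tests were chosen with earlier results of these data known. The lists shown in the text are those whose members are described. Named genes were the largest changes past both thresholds (adjusted p 0.05, log2 fold change 1 in size) whose average log2 CPM reached 1 (up to 12 each way, at most 4 unnamed loci), the 4 genes of lowest p in each list, called members and counter-examples, and the text says where a gene lies outside this. The test was checked on simulated counts with planted changes, where 5 of 164 calls were false. These counts were drawn independently for each gene and library. The check therefore cannot speak to the dependence of the calls on single libraries or on batch. The labels do not state that each library is 1 animal, so p-values measure the spread between libraries. RefSeq names were matched by gene ID, and promoter windows come from RefSeq (GRCr8), not the build of the counts. Figures were drawn with matplotlib 3.10.9. A few genes are not reported here.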

Additional observations from a re-analysis of the deposited data

Results flagged for a closer look

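In 120 genes and both groups (240 sets of 6 or 8 libraries), 6 sets had 1 library set apart from the others by a gap that exceeds Dixon's 95% critical value on the log2 CPM scale. Chance alone would set apart about 1 in 20. Within PYY_Lira, replicate 4 was apart in 3 genes. It had the highest Ebp (119 CPM, next library 92.2 CPM), the lowest Cxcl10 (1.37 CPM, next 3.24 CPM) and the lowest Cxcl9 (3.72 CPM, next 7.16 CPM). Within BWM, replicate 2 had the lowest Igfbp1 (5.51 CPM, next 36.2 CPM), the lowest Slc7a5 (0.795 CPM, next 1.61 CPM) and the lowest Sp5 (0.199 CPM, next 0.718 CPM). Without PYY_Lira replicate 4, 36 genes passed in place of 43, and without BWM replicate 2 there were 22.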

How the results depend on the processing

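The count of 43 genes was 113 with DESeq2 (51 higher, 62 lower), 110 with shrunken fold changes in DESeq2 (48 and 62) and 93 in limma-voom (34 and 59), holding 43, 43 and 41 of the 43. It was 11 without a filter on low counts, 4 in all 69 libraries with a term per group and batch, and 2 with group and batch as separate terms, where 5 batch B PYY_Lira libraries enter and 1 of the 43 passed. It was 64 in the 14 libraries alone, with 39 higher and 25 lower and 29 of the 43 kept. With the fold threshold, 17 became 46 in DESeq2, 7 with shrunken fold changes, 26 in limma-voom, 8 without the filter, 32 in the 14 libraries alone, and 4 and 1 in the fits of 69 libraries. BWM against Sham gave 54, 55 and 22 genes in DESeq2, DESeq2 with shrunken fold changes and limma-voom and 2 without the filter, in place of 7, and PYY_Lira against Saline 3 and 1 with shrunken fold changes and limma-voom, in place of 0. Leaving out 1 library gave 5 to 46 genes, 5 to 22 with the fold threshold, 0 to 9 for BWM against Sham and 0 to 0 for PYY_Lira against Saline. The cause was not tested. DESeq2's size factors, unrounded counts and no robust estimation gave 46, 39 and 45. None of the 43 genes reversed. With group and batch as separate terms, Sc5d (-0.13) and Cpt1a (-0.42), neither called, reversed.

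The replicate numbers are shared by the groups. The deviations of same-numbered libraries correlated between -0.07 and 0.11, 2 of 6 over 0.1, and 2 of 6 libraries correlated best with their own number. So few pairs cannot show whether these libraries share more than a number. With the replicate block 24 genes passed (21 of the 43), 15 with the fold threshold, 7 for BWM against Sham and 0 for PYY_Lira against Saline.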

Other observations

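Several gene lists that the report does not describe lay mostly on one side. Of 78 cytosolic ribosomal protein genes, 74 were higher in BWM on average (median log2 fold change 0.13), and of 60 nuclear-encoded subunits of the respiratory chain 57 were positive, with a median of 0.15. None of either passed, and over all 16552 genes 8054 were positive. Of 16 p53 targets 15 were negative, with a median of -0.31; Ccng1, a cyclin induced by p53, had -0.59 (edgeR adjusted p = 0.147). Of 26 glutathione and NRF2 genes 22 were negative (median -0.14). Of 20 Wnt and zonation genes 14 were negative (median -0.27), among them Rnf43 and Znrf3, ligases that remove Wnt receptors, at -0.76 and -0.84 (edgeR adjusted p = 0.184 and 0.196). Aldh1a1, which makes retinoic acid, had 40.5, 87.4 and 167 CPM (lowest, median and highest) in BWM, against 119, 234 and 397 CPM in PYY_Lira, and a log2 fold change of -1.29 (edgeR adjusted p = 0.0658).

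Ifit1, an interferon-induced gene, spanned 0 to 47.2 CPM within BWM, with 47.2 CPM in replicate 5 and 4.15 CPM in the next library, and 0 to 2.39 CPM within PYY_Lira. Pnpla3 had 33.5 CPM in BWM replicate 1 and 10.9 CPM in the next library. Cyp4a2 had 693 CPM in PYY_Lira replicate 2, against 71.0 CPM in replicate 4 of the same group.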
